A study of Zea mays with 4 samples.

Results

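UDP-glycosyltransferase genes were examined in maize (Zea mays) endosperm, the nutritive tissue of the kernel, by RNA-seq at 10 days after pollination. The genes were chosen by annotation: the protein description in the deposited tables had to name a UDP-glycosyltransferase, a UDP-glucosyltransferase, an O-glucosyltransferase or a glucosyl transferase, or the KEGG orthology had to contain K13691, the entry for a pathogen-inducible salicylic acid glucosyltransferase. Genes described with starch, cellulose or callose were left out. This gave 90 of the 34567 genes that had a value in any library, 59 by description alone, 22 by K13691 alone and 9 by both. The rule itself uses no measured level, but it was set with earlier results of these data known.

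The groups compared were wild type and dek, the genotype name given to the mutant in the labels, with 2 libraries, A and B, of each. Each was prepared from pooled endosperm (8 to 10 individuals), and the pools trace to 2 segregating ears. No treatment is given for any group, and the labels name neither the mutated gene nor the inbred background, so the mutated locus was not checked. Where a pair of values is given for a genotype, library A comes first and B second. Wild-type libraries held 14562359 and 13119658 estimated counts, and dek libraries 14776699 and 14703218. The tissue carried the mark of starchy endosperm in wild type, where zein storage protein genes summed to 62737 and 59334 FPKM (fragments per kilobase of gene length, scaled to library size), against 3638 and 6293 FPKM in dek, and none of the listed genes of the basal transfer layer, the cells that take up nutrients from the mother plant, was at 0 in any library. In bulk tissue, fewer cells of a type and less RNA per cell cannot be told apart.

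UDP-glycosyltransferases move a sugar, most often glucose, from a UDP-sugar onto small acceptor molecules such as hormones, phenolic acids, flavonoids and defence compounds, and also onto foreign chemicals. The sugar makes the acceptor more soluble, usually masks its activity and prepares it for storage in the vacuole, and beta-glucosidases can release it again. In maize kernels the family is known for the glucosylation of anthocyanins in the aleurone, of the auxin indole-3-acetic acid and of cytokinins, and in seedlings for the glucosylation of benzoxazinoid defence compounds. Most members here carry a role only by sequence likeness to such enzymes, so each description below is an annotation and not a measured activity.

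More members were higher than lower in dek. Of the 52 members with enough counts to be tested, 14 were higher and 3 lower in dek at an adjusted p under 0.05 (edgeR quasi-likelihood test, Benjamini-Hochberg adjustment over all 24624 genes tested), and 35 did not pass. Of these calls, 13 higher and 3 lower were at least 1 on the log2 scale, which 5.48% and 5.21% of all tested genes met. That is 26.9% of tested members higher and 5.77% lower, where the background over all tested genes was 7.98% higher and 8.85% lower. The median log2 fold change of the tested members, dek over wild type, was 0.42, and over all tested genes it was 0.01. Single members ranged from -3.02 to 4.94, with 32 above 0 and 20 below 0. When the libraries were scaled by total counts alone, the log2 fold changes were 0.31 higher at the median. The members then counted 17 higher and 3 lower, against backgrounds of 18.3% and 5.19%, and the share of all called genes that were higher went from 47.4% to 77.9%. The 14 higher and 3 lower members passed under each of 3 other scalings. With dek A left out 7 members passed as higher and 1 as lower, and with dek B left out 4 and 1.

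**Figure D1:**
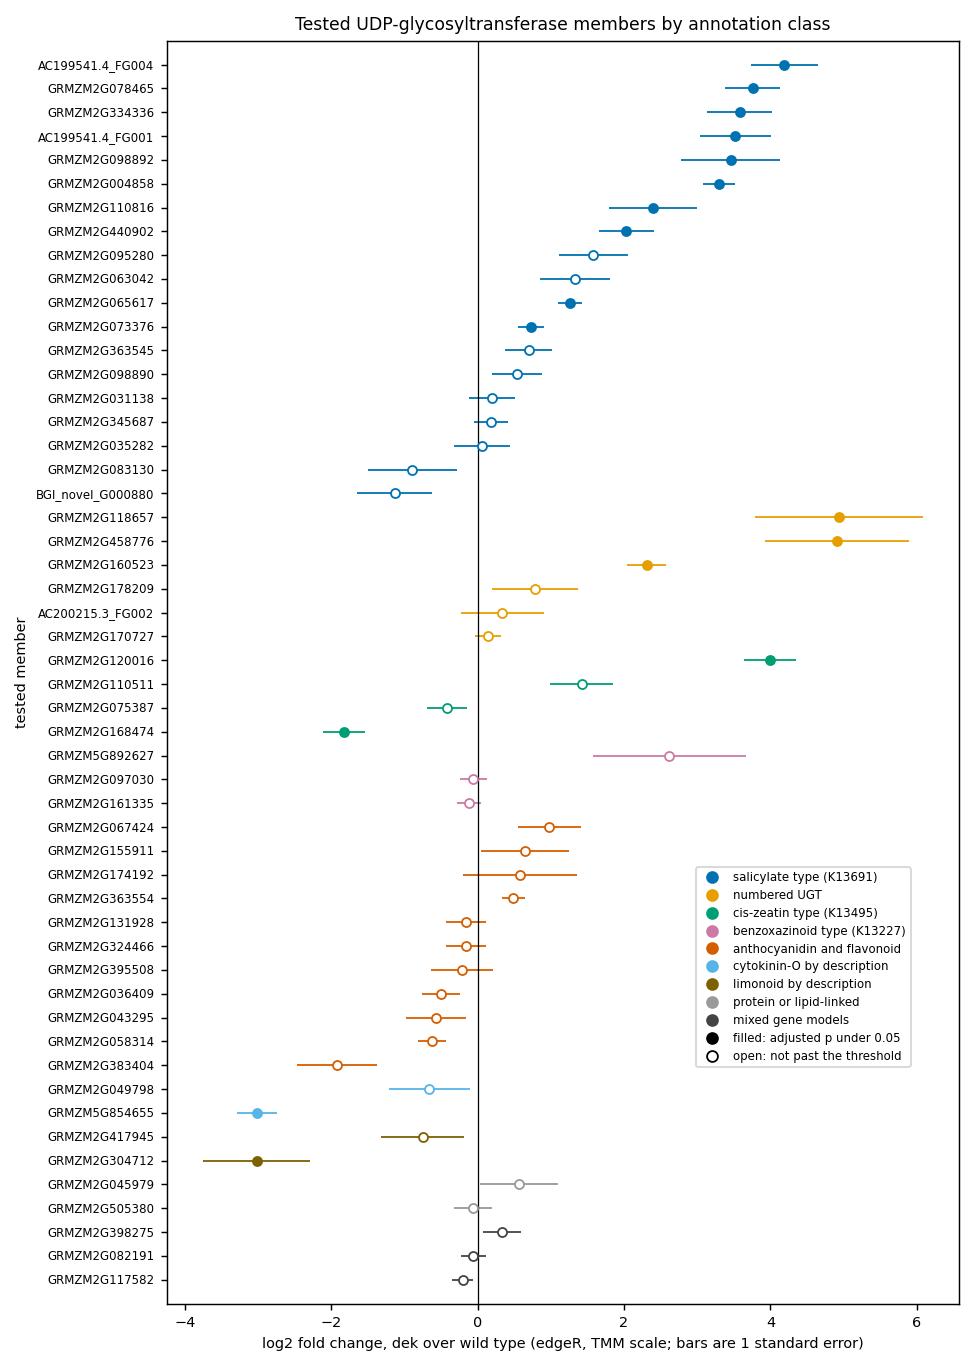
Log2 fold change, dek over wild type, of the 52 tested members, grouped by annotation class on the vertical axis. Points are edgeR estimates from 2 libraries per genotype, bars are 1 standard error, and filled points have an adjusted p under 0.05. The blue points at the top, the genes with K13691, hold 10 of the 14 higher members.

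In levels, the members summed to 878.7 and 1054.2 FPKM in wild type and to 1166.1 and 1361.1 FPKM in dek. The means were 966.4 ± 124.1 FPKM in wild type and 1263.6 ± 137.9 FPKM in dek (SD, n = 2 each), a log2 ratio of 0.39. FPKM is scaled to total fragments, as the total-count fit is. Divided by the TMM factors that the calls use, the sums were 981.7 and 1167.4 in wild type and 1033.7 and 1240.8 in dek, which overlap, and the log2 ratio was 0.08. The family total thus did not separate the genotypes on both scales, and an exact two-sided permutation test of 2 against 2 libraries cannot go below p = 0.333. One gene, GRMZM2G097030, supplied 47.6% to 56.9% of the sum in each library. Without it and 3 gene models of mixed annotation described further on, the sums were 188.4 and 211.0 FPKM in wild type and 380.6 and 382.5 FPKM in dek, a choice of genes made after seeing the values. Over the TMM factors these were 210.5 and 233.7 in wild type and 337.4 and 348.7 in dek, with no overlap. At 1 FPKM or more there were 34 and 36 members in wild type and 43 in each dek library. Between the genotypes, 5 members reached 1 FPKM in both dek libraries and in neither wild-type library, where 3.77% of all genes with a value did, and 0 members did the opposite, where 1.16% of all genes did. These counts are on the FPKM scale, which the total-count scaling sets higher in dek. Most of the higher members were low in wild type: the median of their mean level was 0.877 FPKM in wild type and 8.50 FPKM in dek. The 3 lower members had a median mean level of 8.74 FPKM in wild type and 2.19 FPKM in dek.

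The libraries can also be compared without a threshold on p. In counts scaled to library size by the trimmed mean of M-values (TMM), both dek libraries lay above both wild-type libraries for 25 of the 52 tested members, or 48.1%, where 32.9% of all tested genes did. Both lay below for 11 members, or 21.2%, where 31.5% of all tested genes did. The groups overlapped for the other 16 members.

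**Figure D2:**
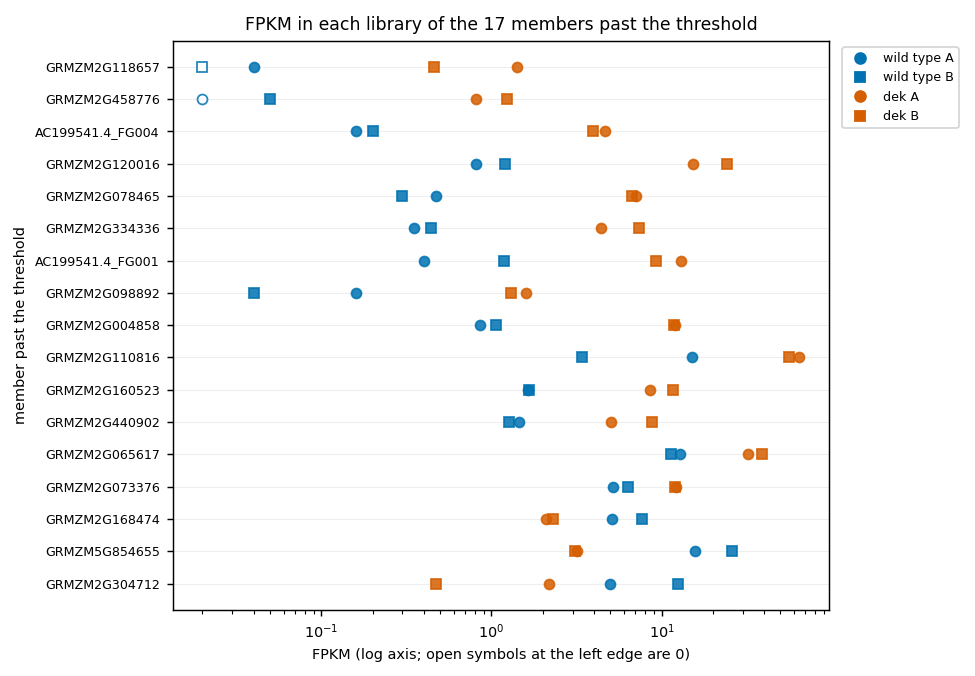
FPKM on a log axis in each of the 4 libraries (circles A, squares B, blue wild type, orange dek) for the 17 members past the threshold, ordered by log2 fold change. Open symbols at the left edge stand for 0, and in no row do the blue and orange symbols overlap.

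The genes with K13691 made up 10 of the 14 higher members. Each member was put in 1 class, first by orthology and then by description. The K13691 class holds 30 members, the ones with that orthology other than a gene model of mixed annotation. Of its 19 tested members, 10 were higher and none lower in dek; the median log2 fold change was 1.33, and 17 of the 19 were above 0. Its summed level was 74.9 and 66.9 FPKM in wild type and 232.2 and 234.6 FPKM in dek, or 70.9 ± 5.62 against 233.4 ± 1.68 FPKM (SD, n = 2 each). The dek sums lay far above both wild-type sums, also over the TMM factors (83.7 and 74.1 in wild type, 205.8 and 213.8 in dek). The other 60 members, 33 of them tested, counted 4 higher and 3 lower with a median of -0.06, whose sign changed with the scaling, to 0.25 with total counts alone. No test of the difference between the classes was made. The count of higher K13691 members was 9 to 10 without either wild-type library, 5 without dek A and 3 without dek B, and none was lower in any of those fits.

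The K13691 class is annotated for glucosylation of salicylic acid, a defence hormone, and some of its members also carry entries for other acceptors, such as cyanohydrins. Among its members 8 also carry K13692, the entry for the glucosyltransferase that makes the ester of indole-3-acetic acid with glucose. Of the 6 of these that were tested, 4 were higher, and of the 13 tested members with K13691 and no K13692, 6 were higher. Outside the class, K13692 is also carried by GRMZM2G304712, which was lower in dek (log2 fold change -3.02). It is carried as well by GRMZM2G417945, GRMZM2G170727 and GRMZM2G398275, which did not pass, and by GRMZM2G055446 and GRMZM2G073244, which were not tested.

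The gene with the smallest adjusted p of all members was GRMZM2G004858, which carries both entries. Its level was 0.86 and 1.07 FPKM in wild type and 11.97 and 11.85 FPKM in dek. The dek libraries were alike and stood clear of the wild type, a 9.84-fold rise (log2 fold change 3.30 ± 0.222 SE, adjusted p = 0.0022). GRMZM2G078465, with no descriptive name in the tables, read 0.47 and 0.30 FPKM in wild type and 7.05 and 6.75 FPKM in dek. It rose 13.5-fold (log2 fold change 3.76 ± 0.374, adjusted p = 0.00519) with no overlap of the groups. Both genes passed in every fit that left out 1 library.

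AC199541.4_FG004 is described as like UGT74F2, which in Arabidopsis glucosylates salicylic acid. It read 0.16 and 0.20 FPKM in wild type, close to silent, and 4.68 and 3.98 FPKM in dek. The groups lay far apart (log2 fold change 4.19 ± 0.456, adjusted p = 0.00615, and 0.0556 without dek A). AC199541.4_FG001, whose identifier places it on the same sequenced clone, read 0.40 and 1.18 FPKM in wild type and 13.07 and 9.25 FPKM in dek. It too was higher in both dek libraries (log2 fold change 3.52 ± 0.483, adjusted p = 0.011), with an adjusted p of 0.0734 without dek A and 0.0516 without dek B. The remaining members on that clone were not tested: AC199541.4_FG007 read 0.34 and 0.47 FPKM in wild type and 0.08 and 0.30 FPKM in dek, and AC199541.4_FG002 read 0 and 0.20 FPKM in wild type and 0 in dek. The clone thus held both gene models that rose and scarce ones with lower values in dek, but these values may not be independent. Estimated counts of AC199541.4_FG001 and AC199541.4_FG004 were fractional, 7.86 and 3.14 in wild type A and 262.89 and 94.11 in dek A, so reads were divided among gene models. In wild type B, AC199541.4_FG004 and AC199541.4_FG002 each had 3.5 counts. How far these rises and falls are separate was not tested. GRMZM2G334336, described as like UGT74E1, read 0.35 and 0.44 FPKM in wild type and 4.38 and 7.41 FPKM in dek. It rose without overlap (log2 fold change 3.58 ± 0.445, adjusted p = 0.00883, and 0.0591 without dek B).

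GRMZM2G098892 stayed low in all libraries and read 0.16 and 0.04 FPKM in wild type and 1.60 and 1.31 FPKM in dek. Its rise (log2 fold change 3.46 ± 0.676, adjusted p = 0.0256) rested on few wild-type reads, and the adjusted p was 0.0563 without wild type B, 0.137 without dek A and 0.107 without dek B. GRMZM2G440902, which lies outside the rule for naming genes and was picked after its values were seen, read 1.45 and 1.27 FPKM in wild type and 5.02 and 8.75 FPKM in dek. Both dek values were above both wild-type values (log2 fold change 2.03 ± 0.377, adjusted p = 0.0226), with an adjusted p of 0.0524 without wild type B and 0.122 without dek B.

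The class also holds its most abundant genes. GRMZM2G110816, with both K13691 and K13692, read 15.01 and 3.42 FPKM in wild type and 64.75 and 56.56 FPKM in dek. The wild-type libraries differed from each other by more than the dek libraries did, and the groups did not overlap. The rise (log2 fold change 2.40 ± 0.601, adjusted p = 0.0471) was close to the threshold: the adjusted p was 0.166 without dek A, 0.146 without dek B and 0.0594 with the Wald test of DESeq2. GRMZM2G063042, described as like a crocetin glucosyltransferase, showed the same order of libraries and read 12.22 and 3.98 FPKM in wild type and 27.32 and 23.52 FPKM in dek. It did not pass (log2 fold change 1.33 ± 0.475, adjusted p = 0.109), and it passed without wild type A (log2 fold change 2.38, adjusted p = 0.00253) and with DESeq2 (adjusted p = 0.0343).

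In both of these genes wild type B was the lowest library. The 12 listed genes of the basal transfer layer had the same order, with a sum of 2521.7, 686.3, 7520.8 and 4981.3 FPKM in wild type A, wild type B, dek A and dek B, and none of them was at 0 in any library. Their part in the values of GRMZM2G110816 and GRMZM2G063042 was not tested.

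GRMZM2G065617 was steadier. It read 12.83 and 11.33 FPKM in wild type and 32.44 and 39.19 FPKM in dek, with close repeats and no overlap (log2 fold change 1.26 ± 0.165, adjusted p = 0.0097, and 0.058 without dek B). GRMZM2G073376, described as an indole-3-acetate beta-glucosyltransferase and also named after its values were seen, read 5.22 and 6.33 FPKM in wild type and 12.17 and 12.07 FPKM in dek. Its rise was the smallest of the 14 (log2 fold change 0.73 ± 0.178, adjusted p = 0.0446) and passed in none of the 4 fits that left out a library, where the adjusted p was 0.128 without wild type A, 0.06 without wild type B, 0.168 without dek A and 0.184 without dek B. Over the class, 4 members have a description that names indole-3-acetate, all tested, of which 2 were higher. Of these GRMZM2G035282 read 1.46 and 1.67 FPKM in wild type and 2.50 and 1.70 FPKM in dek, and did not pass (log2 fold change 0.06 ± 0.387, adjusted p = 0.93).

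Members annotated for cytokinins moved in both directions. Cytokinins are hormones of cell division that are abundant in young endosperm, and O-glucosylation stores them in an inactive form that can be set free again. Of the 4 members with the cis-zeatin O-glucosyltransferase orthology, K13495, all were tested, 1 was higher and 1 lower. Another 9 members are described as cytokinin-O-glucosyltransferases, among them 3 of the K13691 class and 1 gene model of mixed annotation. Of the 5 of these that were tested, none was higher and 1 was lower. The cytokinin-N-glucosyltransferase orthology, K13493, is carried beside other entries by GRMZM2G118657, which was higher. GRMZM2G097030, GRMZM2G161335 and GRMZM5G892627 carry it too and did not pass.

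GRMZM2G120016, described as a cis-zeatin O-glucosyltransferase, read 0.81 and 1.20 FPKM in wild type and 15.22 and 24.23 FPKM in dek. It was low in both wild-type libraries and high in both dek libraries, a 15.9-fold rise (log2 fold change 3.99 ± 0.356, adjusted p = 0.00389) that passed in every fit without 1 library. GRMZM2G168474, cis-zeatin O-glucosyltransferase 1, went the other way, from 5.13 and 7.73 FPKM in wild type to 2.08 and 2.30 FPKM in dek. The groups did not overlap (log2 fold change -1.82 ± 0.287, adjusted p = 0.0151), and the adjusted p was 0.0948 without dek A and 0.0783 without dek B.

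GRMZM2G110511, cis-zeatin O-glucosyltransferase 2, read 0.88 and 0.49 FPKM in wild type and 2.07 and 2.39 FPKM in dek. Both dek values were above both wild-type values, but the difference did not pass (log2 fold change 1.42 ± 0.436, adjusted p = 0.0776), and it passed with total counts alone (adjusted p = 0.038). Estimated counts of GRMZM2G110511 and GRMZM2G168474 were fractional, 27.91 and 121.09 in wild type A and 64.5 and 49.5 in dek A. Reads were thus divided among gene models, and the opposite changes of these genes may not be independent, which was not tested. GRMZM2G075387, described as like cis-zeatin O-glucosyltransferase 1, read 4.21 and 3.34 FPKM in wild type and 3.47 and 3.53 FPKM in dek, with a log2 fold change of -0.42 ± 0.269 and an adjusted p of 0.329. Summed FPKM of the 4 genes was 11 and 12.8 in wild type and 22.8 and 32.4 in dek, so the higher total in dek lay in GRMZM2G120016.

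GRMZM5G854655 is described as cytokinin-O-glucosyltransferase 3, but its only orthology is K13496, UDP-glucosyl transferase 73C, as in the higher GRMZM2G458776 and GRMZM2G160523. GRMZM5G854655 had the clearest fall of the family. It read 15.68 and 25.81 FPKM in wild type and 3.19 and 3.11 FPKM in dek. The dek libraries were alike and far below either wild-type library (log2 fold change -3.02 ± 0.273, adjusted p = 0.00405), and the call was kept in every fit without 1 library. Among the genes that break cytokinins down or conjugate auxin to amino acids (cytokinin oxidases and GH3 enzymes), 0 of 10 tested were higher and 1 was lower, cytokinin oxidase1 (GRMZM2G146644, log2 fold change -0.95, adjusted p = 0.041). With total counts alone 1 of the 10 was higher and none was lower.

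**Figure D3:**
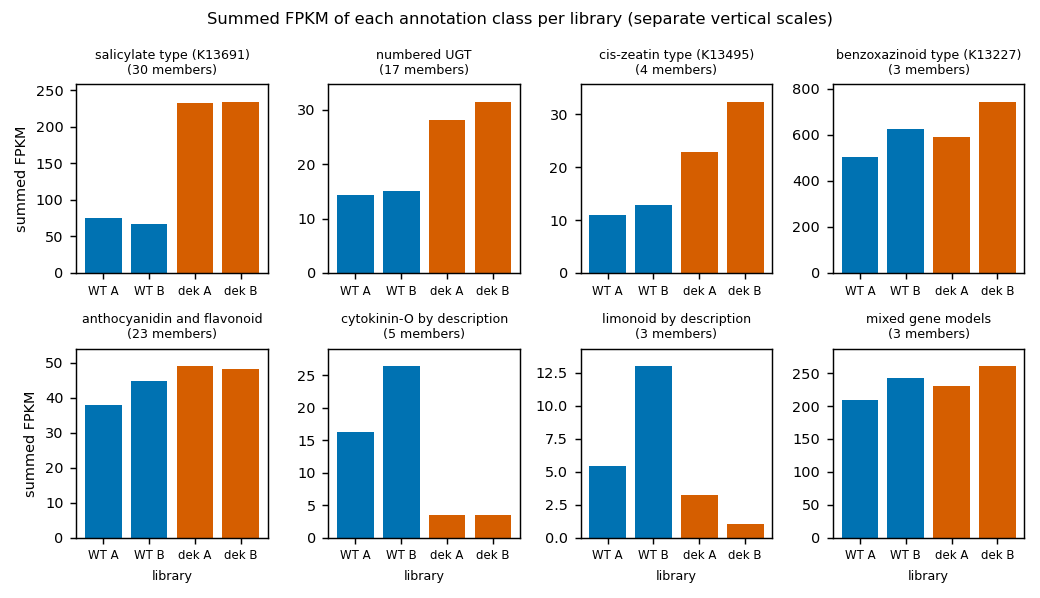
Summed FPKM of each annotation class in each library, on separate vertical scales that start at 0, for 8 classes. Blue bars are wild type and orange bars dek, with 1 bar per library and no error bar. The K13691 class stands at 232.2 and 234.6 FPKM in dek against 74.9 and 66.9 FPKM in wild type. The 5 cytokinin-O-glucosyltransferases in no other class stand at 3.51 and 3.54 FPKM in dek and 16.3 and 26.4 FPKM in wild type. Most of that sum is GRMZM5G854655 alone, at 3.19 and 3.11 FPKM in dek and 15.68 and 25.81 FPKM in wild type.

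Members described by a numbered UGT of another plant were mostly scarce. There are 22, of which 8 were tested, 5 were higher and none was lower. AC199541.4_FG004 and GRMZM2G334336, described above with the K13691 class, are among the 5. The class that the plots call numbered UGT holds the 17 members in no other class, 6 of them tested and 3 higher, with a median log2 fold change of 1.54. GRMZM2G160523, described as like UGT89B1 and named after its values were seen, read 1.65 and 1.67 FPKM in wild type and 8.54 and 11.66 FPKM in dek. It rose without overlap (log2 fold change 2.31 ± 0.269, adjusted p = 0.00721, and 0.0533 without dek B).

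The other two higher genes of this class had the largest fold changes of the family on very few wild-type reads. GRMZM2G118657, like UGT85A7, read 0.04 and 0 FPKM in wild type and 1.41 and 0.46 FPKM in dek (log2 fold change 4.94 ± 1.15, adjusted p = 0.0398). With 1 estimated count in wild type and 49 in dek, the ratio was 37.2 (95% exact Clopper-Pearson interval 6.37 to 1498.9, counting error only). The call was lost in each fit without 1 library, with adjusted p values of 0.0548 without wild type A, 0.0972 without wild type B, 0.206 without dek A and 0.0787 without dek B. GRMZM2G458776, like UGT73C3, a family that in Arabidopsis includes glucosyltransferases of brassinosteroids and of foreign compounds, read 0 and 0.05 FPKM in wild type and 0.81 and 1.24 FPKM in dek (log2 fold change 4.91 ± 0.984, adjusted p = 0.0273). Its counts were 1 in wild type and 48 in dek, a ratio of 36.4 (interval 6.23 to 1468.9). The adjusted p was 0.0557 without wild type A, 0.108 without dek A and 0.129 without dek B. Both genes were near 0 in wild type and present at about 1 FPKM in dek.

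The benzoxazinoid class held the most abundant gene and did not pass. Benzoxazinoids are defence compounds of grasses, kept harmless as glucosides that the enzymes BX8 and BX9 make. GRMZM2G097030, described only as a UDP-glucosyltransferase and assigned to the BX8 and BX9 orthology K13227, read 480.43 and 600.02 FPKM in wild type and 554.77 and 718.53 FPKM in dek. The groups overlapped, and the log2 fold change was -0.06 ± 0.187 (adjusted p = 0.842). GRMZM2G161335, described as the DIMBOA glucosyltransferase BX9, read 25.16 and 27.22 FPKM in wild type and 34.39 and 25.21 FPKM in dek, again overlapping (log2 fold change -0.12 ± 0.168, adjusted p = 0.659). GRMZM5G892627, described as like BX8, was scarce, with 3 counts in wild type and 26 in dek, a ratio of 6.58 (interval 2.02 to 34.0), and did not pass (adjusted p = 0.143). The gene described as benzoxazinone synthesis 8 (GRMZM2G085054), the BX8 enzyme itself, is not matched by the rule. It read 72.36 and 86.23 FPKM in wild type and 94.99 and 106.21 FPKM in dek, and did not pass (log2 fold change 0.04 ± 0.143, adjusted p = 0.872). With it, 5 listed genes of benzoxazinoid synthesis outside the rule were tested, of which 1 was higher, a gene model described as BX7, and 1 lower, BX6 (GRMZM6G617209).

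Of the 23 anthocyanidin and flavonoid members 11 were tested and none passed, where 16.8% of all tested genes did. Glucosides of anthocyanidins and flavonoids colour the aleurone and protect it from light, but these members hold such a role by annotation only. The gene described as bronze1 (bz1) is not matched by the rule. Of 11 tested, the median log2 fold change was -0.16 (0.14 with total counts alone, where 1 was higher). The differences nearest the threshold were those of GRMZM2G383404 and GRMZM2G058314 below 0 and of GRMZM2G363554 above 0, picked after their values were seen. GRMZM2G383404 read 1.0 and 0.82 FPKM in wild type and 0.22 and 0.37 FPKM in dek (log2 fold change -1.92 ± 0.547, adjusted p = 0.0647). GRMZM2G363554 read 9.04 and 8.83 FPKM in wild type and 14.39 and 16.65 FPKM in dek (log2 fold change 0.49 ± 0.161, adjusted p = 0.0893). Their FPKM sums were 38.1 and 44.9 FPKM in wild type and 49.0 and 48.3 FPKM in dek. GRMZM2G131928 and GRMZM2G324466 had the same value in every library, so their reads cannot be told apart.

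GRMZM2G304712, described as a limonoid UDP-glucosyltransferase after an enzyme of citrus, read 4.96 and 12.52 FPKM in wild type and 2.19 and 0.47 FPKM in dek. The repeats differed widely in both genotypes, but the groups did not overlap (log2 fold change -3.02 ± 0.732, adjusted p = 0.0436). The adjusted p was 0.097 without wild type B, 0.0661 without dek A and 0.122 without dek B. The other tested member with this description, GRMZM2G417945, read 0.52 and 0.53 FPKM in wild type and 0.47 and 0.30 FPKM in dek, and did not pass (adjusted p = 0.401).

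A few members carry annotation of other kinds. GRMZM2G117582 met the rule through its description but has the calmodulin orthology, and read 201.18 and 232.87 FPKM in wild type and 217.01 and 249.56 FPKM in dek (log2 fold change -0.20 ± 0.143, adjusted p = 0.382). It was the second most abundant gene of the 90, and the groups overlapped. GRMZM2G398275 is also described as a zinc finger protein and GRMZM2G082191 also has ribosomal and receptor kinase orthologies, and neither passed. GRMZM2G505380 and GRMZM2G045979, which are like enzymes that add sugars to proteins or to lipid carriers, did not pass either.

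The 38 members that were not tested were close to silent, with a highest level of 2.25 FPKM in any library and at most 38 counts over the 4 libraries. Counts were in dek only for 10 of them, in wild type only for 10 and in both for 18. Over all 9943 untested genes, 24.9% had counts in dek only and 13.9% in wild type only. The untested member with the most counts in dek alone was GRMZM5G818068, with 26 counts against 0; taking 3 counts over the wild-type group as the floor, it was at least 6.58-fold higher. GRMZM2G301148 had 19 against 0 (4.81-fold higher against the same floor) and GRMZM2G055446 had 17 against 0 (4.30-fold higher).

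Members that are neighbours in the RefSeq gene order of the B73 reference did not share 1 response. Of 75 members that could be placed, 20 formed 9 groups of neighbours at most 3 protein-coding genes apart. In a pair of the K13691 class, GRMZM2G073376 and GRMZM2G004858, both were higher, by log2 fold changes of 0.73 and 3.30. In another, GRMZM2G078465 and GRMZM2G065617, both were higher as well, by 3.76 and 1.26. In a group of 3 GRMZM2G098892 was higher, by 3.46, while GRMZM2G031138, which read 8.83 and 17.66 FPKM in wild type and 18.72 and 18.77 FPKM in dek, did not pass (log2 fold change 0.20 ± 0.311, adjusted p = 0.692), and the gene between them was not tested. Neighbours thus differed in size of change within the same class.

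Of 6 tested genes that make UDP-glucose, the sucrose synthases and UDP-glucose pyrophosphorylase, none was higher and 4 were lower, with a median log2 fold change of -1.0 (3 lower with total counts alone). Sucrose synthase, which makes UDP-glucose from sucrose, is encoded in endosperm mainly by shrunken1 (GRMZM2G089713), which read 3101.96 and 2328.21 FPKM in wild type and 278.64 and 475.64 FPKM in dek (log2 fold change -3.15 ± 0.314, adjusted p = 0.00522). UDP-glucose pyrophosphorylase1 (GRMZM2G032003) read 1068.13 and 923.18 FPKM in wild type and 506.22 and 533.79 FPKM in dek (log2 fold change -1.27 ± 0.137, adjusted p = 0.00596). Both fell without overlap. Of 6 tested genes that convert UDP-glucose to other UDP-sugars, none passed (1 higher with total counts alone). Among them UDP-glucose 6-dehydrogenase (GRMZM2G328500), which turns UDP-glucose into UDP-glucuronic acid, read 99.64 and 117.99 FPKM in wild type and 191.71 and 187.66 FPKM in dek and did not pass (log2 fold change 0.50 ± 0.129, adjusted p = 0.0514). The genes that make UDP-glucose and those that convert it were planned as a single list and were split later. In the plan, the 4 lower genes thus shared a list with the 6 tested genes of which none passed.

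Other families that act on small molecules were read against the same background. Of 39 tested glutathione S-transferases, which couple glutathione to reactive and foreign compounds, 14 were higher and none lower, with a median log2 fold change of 1.18. Among them glutathione S-transferase 4 (GRMZM2G132093) read 2.46 and 2.48 FPKM in wild type and 356.84 and 292.43 FPKM in dek (log2 fold change 6.74 ± 0.178, adjusted p = 0.000168). Of 91 tested cytochrome P450 genes, whose oxygenated products are common acceptors of glucose, 16 were higher and 7 lower (median 0.02). ABC and MATE transporters, some of which carry conjugates into the vacuole, counted 11 higher and 5 lower of 64 tested with a median of 0.11. Beta-glucosidases, some of which remove glucose from such conjugates, counted 1 higher and 2 lower of 5 tested, once the glucan endo-1,3-beta-glucosidases, which cut wall glucans, were set apart. Those counted 3 higher and 3 lower of 20 tested (4 higher and 1 lower with total counts alone). Genes of phenylpropanoid and flavonoid synthesis, the source of many acceptors, counted 2 higher and 5 lower of 34 tested with a median of -0.27. With total counts alone they counted 4 higher and 3 lower with a median of 0.04.

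**Figure D4:**
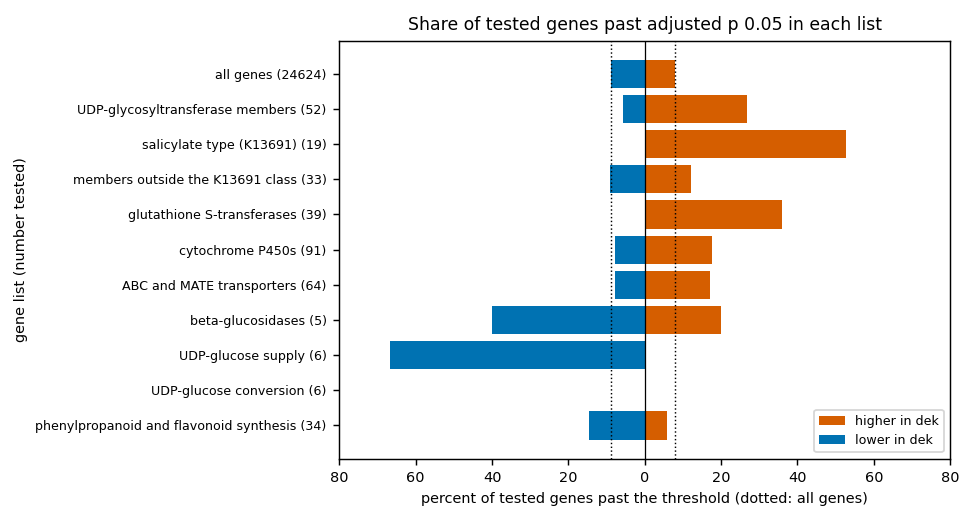
Percent of tested genes past an adjusted p of 0.05 in each list, higher in dek to the right in orange and lower to the left in blue, with the number tested in brackets and dotted lines at 7.98% and 8.85%, the shares over all genes. The K13691 class and the glutathione S-transferases have bars only to the right, and the genes of UDP-glucose supply only to the left. Those of UDP-glucose conversion have none. The supply and conversion lists were planned as a single list and were split later.

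Marker genes of other cell types passed in part. The basal transfer layer list counted 2 higher of 12 tested, or 16.7%, where 7.98% of all tested genes were higher. All 12 had a log2 fold change above 0, from 1.07 to 4.80, with a median of 1.77. The embryo-surrounding region counted 1 higher of 6, with 5 above 0, 1 below 0 and a median of 0.82. Its genes summed to 120.2 and 25.4 FPKM in wild type and 199.6 and 192.6 FPKM in dek. Aleurone genes summed to 294.6 and 293.0 FPKM in wild type and 397.4 and 444.0 FPKM in dek, not divided by the TMM factors, with 1 higher of 6. The higher gene was a vacuolar proton pump (GRMZM2G041065, log2 fold change 0.61), and most of the list are such pumps. Pale aleurone color 1 (GRMZM2G058432, log2 fold change 0.05) and superal 1 (GRMZM2G117935, -0.29) did not pass. Oleosins, oil-body proteins of embryo and aleurone, summed to 756.0 and 899.7 FPKM in wild type and 128.5 and 121.4 FPKM in dek, with 3 lower of 5. Embryo genes summed to 40.7 and 43.0 FPKM in wild type and 68.2 and 89.0 FPKM in dek, with 1 higher of 4. All 25 tested zein genes were lower. The chalcone synthase genes, listed for maternal tissue but not particular to it, summed to 18.1 and 16.5 FPKM in wild type and 20.6 and 23.1 FPKM in dek, with none called of 1 tested. Green tissue genes summed to 10.4 and 9.15 FPKM in wild type and 10.8 and 11.5 FPKM in dek, with 1 lower of 3 tested. The part of these differences in the values of the glycosyltransferase genes was not tested.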

How the data were processed

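Per the labels, RNA came from a CTAB method and standard Illumina library preparation. HISAT, Bowtie2, RSEM and GATK are named in the submitters' processing notes with no version or role; no source used here gives the genome build. For each gene and library the authors deposited an estimated count, not normalized, an FPKM value that they scaled to gene length and library size, and a gene length. Genes missing from a table were taken as 0, and no reads or strands were seen.

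Estimated counts were rounded, filtered (filterByExpr), scaled by TMM and tested with edgeR 4.0.16 (R 4.3.3) on all 4 libraries, with Benjamini-Hochberg adjustment over 24624 genes; the standard error is the log2 fold change divided by the root of F. The script was tested on simulated data. limma 3.58.1 on log2(FPKM + 1) or log2(FPKM + 0.1) and DESeq2 1.42.0 were alternatives. Totals were 13119658 to 14776699 counts, the biological coefficient of variation was 0.226, and the first principal component, which parts the genotypes, held 71.5% of the variance. With 2 pools per genotype, p-values measure the spread between pools.

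Members, classes and comparison lists were chosen with earlier results of these data known, and the lists' descriptions were refined after matches were seen. Named genes are the 10 highest and 10 lowest members past the threshold, the 6 most abundant and those matched to bz1, iaglu1, bx8, bx9, cisZOG1, cisZOG2 or ufgt2; bx9, cisZOG1 and cisZOG2 were matched by description. RefSeq (Zm-B73-REFERENCE-NAM-5.0) matched 77 of the 90 members and gave only names and gene order. Other members were named to complete a class after their values were seen.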

Additional observations from a re-analysis of the deposited data

How the results depend on the processing

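With 2 libraries per genotype the number of calls depends on each library, and at these depths members under 1 FPKM rest on few reads. The genotypes share the letters A and B, but no label says that a letter marks a shared ear, and the correlation of the A-minus-B differences between genotypes was -0.0218. A block for the letter gave 8 members higher and 2 lower, and 811 genes higher and 1080 lower over all genes; the higher K13691 members went from 10 to 6. Leaving out 1 library at a time gave 4 to 12 members higher, 1 to 3 lower, 255 to 1742 genes higher and 413 to 1915 lower; the low ends came without dek A or dek B, and 1310 genes were lower without wild type B. These fits have fewer samples. Over all genes, total counts alone gave 4502 higher and 1279 lower, limma 4483 and 1326 (pseudocount 1) or 4145 and 1260 (pseudocount 0.1), and a log2 difference of at least 1 left 1283 lower. The members' median log2 fold change of 0.42 was 0.72 with total counts alone and 0.64 with limma at pseudocount 0.1, and 0.30 to 0.52 without 1 library. The cause of these moves was not tested. Members counted 15 higher and 3 lower with DESeq2, 17 and 3 or 17 and 2 with limma, 13 and 3 of 90 with no filter, and 11 and 3 of 37 with 50 counts in 2 libraries. No member past the threshold changed sign in any fit. The uncalled GRMZM2G097030, GRMZM2G117582 and GRMZM2G161335 did, reaching 0.24, 0.11 and 0.19 with total counts alone. The log2 ratio of the members' summed FPKM, 0.39, was 0.08 over the TMM factors, a scaling chosen after seeing the data. Of the named and called members, 7 lost the threshold under the block (GRMZM2G118657, GRMZM2G458776, GRMZM2G098892, GRMZM2G110816, GRMZM2G440902, GRMZM2G073376 and GRMZM2G304712, adjusted p 0.0517 to 0.108). Most called members lost it in at least 1 of the fits that left out 1 library. Leaving out the mixed gene models or counting identical models once, both chosen after seeing the data, changed no count by over 1.5 times.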
